A study of Mus musculus with 3 samples.

Results

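Genes that encode proteases and protease inhibitors were followed through single cells of mouse blastocysts, namely Tmprss2, St14, Prss8, Plat, Plau, Htra1, Spint1, Spint2, Csta1 and Capn2. They are 10 of the 23154 genes listed, and all 10 had a row in each library. The set was chosen by measured values: with Tmprss2, Csta1 and Capn2 among genes already known to be higher in trophectoderm-like cells of these data, levels across the keratin division below are a description, without a test. Embryos positive for mCherry came from a Klf2-H2B-mCherry mouse line, left the animal at embryonic day 2.5, and grew in static and shaking culture until blastocysts, labelled embryonic day 3.5, were taken apart and single cells were picked. All 3 libraries, called replicates 1 to 3, carry this reporter and belong to 1 group. The labels do not tell which cells were shaken, and nothing in them says that the libraries came from separate animals or cultures, so a p-value measures only the spread between these libraries, which may be technical.

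The blastocyst has an outer epithelium, the trophectoderm, which seals and pumps fluid into the cavity, and an inner cell mass, which gives rise to the epiblast and the primitive endoderm. St14 (matriptase) and Tmprss2 are serine proteases anchored in the plasma membrane, and Prss8 (prostasin) is a serine protease held by a lipid anchor. Matriptase and prostasin act together on epithelial surfaces, where they are held in check by the Kunitz-type inhibitors encoded by Spint1 and Spint2. Plat and Plau encode the tissue-type and urokinase-type plasminogen activators, which turn plasminogen into plasmin, and Htra1 encodes a secreted serine protease. Csta1 belongs to the stefins, inhibitors of cysteine cathepsins that act in the cytosol, and Capn2 encodes the large subunit of a calcium-dependent calpain, also cytosolic. Of the 10 genes, 6 thus encode surface or secreted proteases, 2 inhibitors of such proteases and 2 cytosolic proteins.

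A barcode counted as a cell when 2000 or more genes had a count, which kept 225 of 288 barcodes, with 83, 64 and 78 cells in replicates 1, 2 and 3. Library totals ran from 27610866 to 54444536 counts, with median totals of 286484, 345414 and 608734 counts per cell. The libraries used the same barcode set, and 46 barcodes were kept in all 3. Cells of each library were ranked by their summed CPM (counts of a gene scaled to the total counts of the cell or class and multiplied by 1e+06) of Krt8 and Krt18, the keratins of simple epithelia, and divided into 3 equal parts, called keratin-high, keratin-middle and keratin-low, with 74, 77 and 74 cells in all. These are ranges of a level and not cell types. Some cells of each library lay near a boundary, defined as up to 25% above it or below it by the same factor: 6 cells in each library at the upper one and 11, 6 and 8 cells at the lower one. Summed CPM of 17 trophectoderm markers, the keratins included, ran from 6416 to 11066 over the libraries in keratin-high cells and from 580 to 689 in keratin-low cells. Keratin-low cells held markers of both inner fates, with epiblast markers from 1081 to 1342 CPM and primitive endoderm markers from 924 to 1790 CPM. In keratin-high cells these ran from 159 to 538 and from 418 to 927 CPM, so the primitive endoderm ranges met. Sox2, an epiblast regulator, was at 0 in all cells. Markers of fibroblasts and blood stayed under 10 CPM in all classes of all libraries, and all 4 globin genes of the blood list were at 0. Cumulus and granulosa cell markers reached 14.7 CPM at most. Oocyte markers had 21.4, 10.1 and 10.6 CPM in keratin-high cells of replicates 1, 2 and 3, 321, 9.19 and 9.85 CPM in keratin-middle cells and 218, 9.40 and 28.7 CPM in keratin-low cells. They were thus high in the lower classes of replicate 1, where 1 cell held 90.4% of the counts of the keratin-middle class and 30.1% of those of the keratin-low class, and their part in the results was not tested. Oviduct epithelium markers, which bear on a list of epithelial proteases, ran from 2.67 to 17.8 CPM in keratin-high and from 2.68 to 10.9 CPM in keratin-low cells, with Krt5 at 0.

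Promoter windows of the 3 genes most restricted to keratin-high cells, and of Spint2, which was not, are shown because the first 3 varied together over cells and Spint2 did not vary with them. They run from 250 bases before to 50 bases after the start in RefSeq's GRCm38.p6 table, which held such a window for 6 of the 10 genes. Capitals mark matches, on either strand, to the TEAD motif GGAATG, the AP-2 motif GCCNNNGGC, the GATA motif AGATAA or the CDX motif TTTATNG. The windows are chr16:97611146-97611445 (minus strand) for Tmprss2, chr16:36131140-36131439 (minus strand) for Csta1, chr1:182517561-182517860 (minus strand) for Capn2 and chr7:29281928-29282227 (minus strand) for Spint2.
Tmprss2: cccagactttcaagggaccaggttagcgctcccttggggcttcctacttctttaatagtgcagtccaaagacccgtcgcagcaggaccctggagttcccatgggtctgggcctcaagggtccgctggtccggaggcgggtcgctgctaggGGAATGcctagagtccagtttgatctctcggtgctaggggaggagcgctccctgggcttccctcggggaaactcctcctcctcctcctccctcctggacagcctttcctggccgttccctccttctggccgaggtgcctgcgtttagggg
Csta1: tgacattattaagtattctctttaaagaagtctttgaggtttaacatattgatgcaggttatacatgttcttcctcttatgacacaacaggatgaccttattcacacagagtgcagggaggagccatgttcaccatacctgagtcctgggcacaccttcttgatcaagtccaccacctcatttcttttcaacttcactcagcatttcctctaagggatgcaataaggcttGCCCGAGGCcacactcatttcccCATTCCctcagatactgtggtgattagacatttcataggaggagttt
Capn2: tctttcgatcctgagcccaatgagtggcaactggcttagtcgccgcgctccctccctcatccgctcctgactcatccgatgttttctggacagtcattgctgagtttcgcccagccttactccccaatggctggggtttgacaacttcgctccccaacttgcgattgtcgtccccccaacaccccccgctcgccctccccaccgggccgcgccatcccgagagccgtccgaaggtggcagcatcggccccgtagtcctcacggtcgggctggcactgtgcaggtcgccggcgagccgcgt
Spint2: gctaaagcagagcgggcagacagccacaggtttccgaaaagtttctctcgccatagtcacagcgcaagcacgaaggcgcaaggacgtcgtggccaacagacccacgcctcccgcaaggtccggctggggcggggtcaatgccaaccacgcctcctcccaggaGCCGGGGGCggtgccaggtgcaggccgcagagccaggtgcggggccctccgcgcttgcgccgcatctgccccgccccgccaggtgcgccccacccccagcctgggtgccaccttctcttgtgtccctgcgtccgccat
The Tmprss2 window held 1 TEAD match, which starts 100 bases before the start of the gene. The Csta1 window held 1 TEAD match just past the start and 1 AP-2 match 20 bases before it, and the Spint2 window held 1 AP-2 match 88 bases before the start. No match to the 4 motifs lay in the Capn2 window. Among 32851 windows of this length, 14.7% held the TEAD letters, 16.6% the AP-2 letters, 11.2% the GATA letters and 10.9% the CDX letters, and a match is a description of letters, not of a bound site.

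Tmprss2 was the surface protease most restricted to keratin-high cells. In GENCODE M21 (GRCm38) it lies at chr16:97564682-97611195 on the minus strand, and none of the 31-base words of its longest transcript occurs in another gene. Its level in summed keratin-high cells was 50.5, 490 and 170 CPM in replicates 1, 2 and 3, against 1.36, 103 and 41.3 CPM in keratin-middle cells and 0.730, 13.9 and 0.782 CPM in keratin-low cells. Every keratin-high library was above every keratin-low library, although the keratin-high level itself spread widely, at 237 ± 227 CPM (SD, n = 3 libraries). The ratio of keratin-high to keratin-low was 69.2, 35.2 and 218 (log2 ratio 6.34 ± 1.33, SD, n = 3). A single keratin-low cell of replicate 2 held 129 of the 138 Tmprss2 counts of its class, and without it that class stood at 1.04 CPM, in the range of the other 2 libraries.

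Within the keratin-high cells Tmprss2 was common but uneven. In replicate 1 single cells ran from 0 over a median of 29.5 to 241 CPM, in replicate 2 from 0 over 209 to 1261 CPM, and in replicate 3 from 0 over 146 to 873 CPM. A count was found in 60 of 74 keratin-high cells, in 29 of 77 keratin-middle cells and in 22 of 74 keratin-low cells, but only 1 of those 22 held 10 or more counts. The 14 keratin-high cells without a Tmprss2 count were shallower, with a median total of 118583 counts against 551754 in the other 60. With every cell thinned to 20000 counts, the share with a Tmprss2 count was 56.3% ± 22.1 (SD, n = 3 libraries) in keratin-high, 26.4% ± 19.9 in keratin-middle and 3% ± 2.65 in keratin-low cells. Thinning left out 3, 2 and 3 shallower cells of the 3 classes, in the same order. The unthinned shares were 81.2% ± 7.20, 38.9% ± 15.9 and 30.3% ± 6.76, so most keratin-low cells with a count had too little of it to be found at equal depth.

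St14 was broadly expressed, with a modest excess in keratin-high cells. It lies at chr9:31089402-31131853 on the minus strand. Of the 31-base words of its longest transcript, 5.88% occur in other genes, the largest share among the members, with Vmn1r76 first at 1.68%. Its level was 59.3, 253 and 85.7 CPM in keratin-high cells of replicates 1, 2 and 3, 22.1, 104 and 53.9 CPM in keratin-middle cells, and 24.4, 131 and 31.97 CPM in keratin-low cells. Within each library the keratin-high value was the highest, by 2.43-, 1.93- and 2.68-fold over keratin-low cells (log2 ratio 1.22 ± 0.24, SD, n = 3), but across libraries the classes overlapped because replicate 2 was high throughout. At 20000 counts per cell, St14 was found in 72.8% ± 10.7 of keratin-high and 40.0% ± 22.1 of keratin-low cells (SD, n = 3).

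Prss8, the partner of matriptase, was higher in each step of the keratin ranking in replicates 1 and 2. It lies at chr7:127925716-127930104 on the minus strand. Keratin-high cells held 44.5, 66.3 and 88.8 CPM in replicates 1, 2 and 3, keratin-middle cells 18.9, 51.9 and 33.6 CPM, and keratin-low cells 7.95, 14.7 and 38.7 CPM. The lowest keratin-high library, at 44.5 CPM, was just above the highest keratin-low library, and the ratios were 5.60, 4.53 and 2.298 (log2 ratio 1.95 ± 0.67, SD, n = 3). An exon of Kat8, an acetyltransferase gene on the opposite strand, overlaps Prss8, and no source used here gives the strand setting of the counting. Kat8 had 26.01 ± 8.56 CPM in keratin-high and 52.0 ± 43.1 CPM in keratin-low cells (SD, n = 3), with the higher mean in keratin-low cells.

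**Figure D1:**
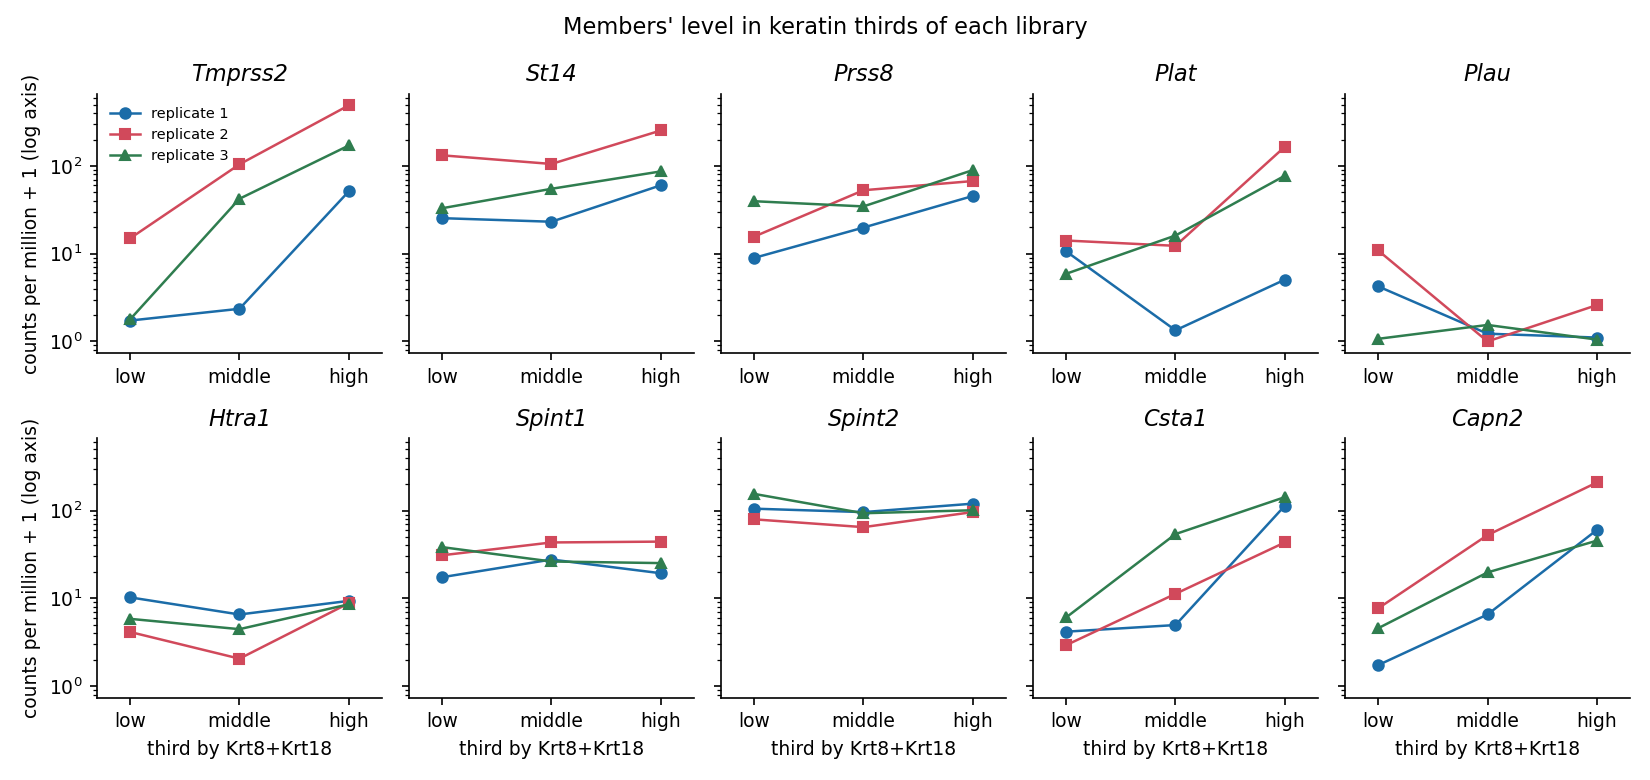
Level of each of the 10 genes in CPM plus 1 (log axis) in keratin-low, keratin-middle and keratin-high cells, with 1 line and marker per library (replicates 1, 2 and 3). Tmprss2, Csta1 and Capn2 lines go up in every library, Plat is highest at the right in replicates 2 and 3 but stands at 4.07 CPM in keratin-high cells of replicate 1, and Spint1 and Spint2 stay nearly level.

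The plasminogen activators differed from each other. Plat, at chr8:22757727-22782844 on the plus strand, had 4.07, 165 and 76.5 CPM in keratin-high cells of replicates 1, 2 and 3, against 9.65, 13.1 and 4.90 CPM in keratin-low cells. It was thus 12.6- and 15.6-fold higher in keratin-high cells of replicates 2 and 3, while in replicate 1 the ratio was 0.421, and the log2 ratio over all 3 libraries was 2.12 ± 2.92 (SD, n = 3). Of the keratin-high cells, 7 of 27, 14 of 21 and 18 of 26 had a Plat count in replicates 1, 2 and 3. In percent these shares were 25.9% (exact Clopper-Pearson 95% interval 11.1 to 46.3), 66.7% (43.0 to 85.4) and 69.2% (48.2 to 85.7), and the intervals cover counting error only. The keratin-low values rested on few cells, since 1 cell held 114 of the 130 counts of replicate 2, and the 3 richest cells held 81.8% of the Plat counts of all 74 keratin-low cells.

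Plau, at chr14:20836660-20843385 on the plus strand, was close to absent. Its level was 0.107, 1.60 and 0.0503 CPM in keratin-high cells and 3.24, 9.90 and 0.0711 CPM in keratin-low cells of replicates 1, 2 and 3. Only 18 of 225 cells had any count, 10 of them keratin-low, and 78 of the 139 keratin-low counts came from 1 cell of replicate 2. At full depth 4 of 74 keratin-high cells had a Plau count. With every cell thinned to 20000 counts these were 0 of 71 keratin-high cells, which allows up to 4.23% of cells with a count at that depth, and 4 of 71 keratin-low cells. The limit pools the cells of all libraries and covers counting error only. Htra1, at chr7:130936111-130985660 on the plus strand, was low in all classes, with 8.34, 7.79 and 7.54 CPM in keratin-high, 5.54, 1.05 and 3.45 CPM in keratin-middle and 9.25, 3.13 and 4.83 CPM in keratin-low cells. Its keratin-high and keratin-low libraries overlapped, with ratios of 0.902, 2.49 and 1.56.

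The class levels of the Kunitz-type inhibitors did not follow the keratins. Spint1, at chr2:119237362-119249527 on the plus strand, had 18.3, 43.3 and 24.2 CPM in keratin-high and 16.4, 29.9 and 37.3 CPM in keratin-low cells of replicates 1, 2 and 3, with a log2 ratio of 0.02 ± 0.59 (SD, n = 3). Spint2, at chr7:29256323-29281912 on the minus strand, had 119, 95.1 and 99.8 CPM in keratin-high and 104, 78.4 and 154 CPM in keratin-low cells, with a log2 ratio of -0.05 ± 0.50. For both genes the ratio was above 1 in replicates 1 and 2 and 0.648 in replicate 3, so the classes overlapped and these levels shared no direction. Spint2 was also the member found in most cells, in 73 of 74 keratin-high, 73 of 77 keratin-middle and 72 of 74 keratin-low cells. At 20000 counts per cell its share was 86.2% ± 3.30 in keratin-high and 66.6% ± 11.5 in keratin-low cells (SD, n = 3). In replicates 1, 2 and 3 it was 84.6%, 90% and 84% against 53.8%, 70% and 76%. The share of cells with Spint1 was 30.8%, 55% and 32% against 19.2%, 20% and 28%. Both shares were thus higher in keratin-high cells of each library, unlike the class levels in CPM. Why the 2 measures differ was not tested, and no order was read from the shares. One keratin-low cell of replicate 1 held 470 of the 1283 Spint2 counts of its class, at 3081 CPM, and without it the class level was 66.8 instead of 104 CPM.

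**Figure D2:**
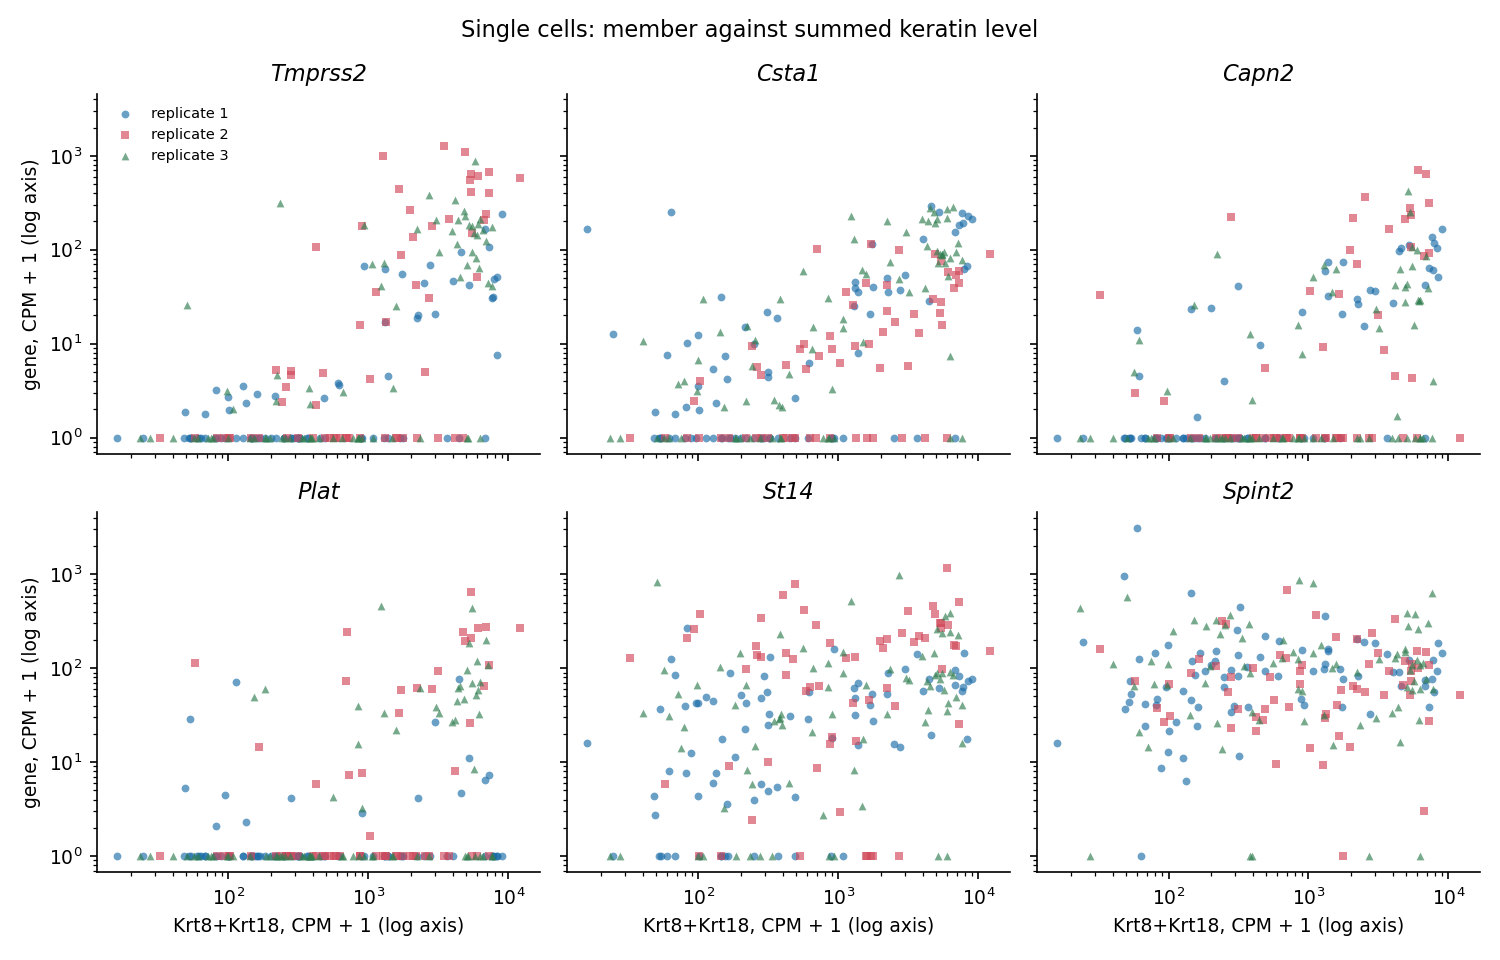
Each of 225 cells by its summed Krt8 and Krt18 level (horizontal, CPM plus 1, log axis) and its level of 6 genes (vertical, CPM plus 1, log axis), with a marker per library. Cells with Tmprss2, Csta1, Capn2 or Plat well above the bottom line lie mostly at the right, with single exceptions at low keratin such as the Tmprss2-rich cell of replicate 2, whereas Spint2 is spread evenly from left to right.

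Of the cytosolic members, Csta1 gave the steadiest ratio. It lies at chr16:36119946-36131241 on the minus strand, and 3.34% of the 31-base words of its longest transcript occur in other genes, most of them in Gm5689. Keratin-high cells had 113, 42.4 and 141 CPM in replicates 1, 2 and 3, keratin-middle cells 3.95, 10.2 and 52.9 CPM, and keratin-low cells 3.16, 1.92 and 5.05 CPM. The ratio of keratin-high to keratin-low was 35.6, 22.1 and 28.0 (log2 ratio 4.81 ± 0.35, SD, n = 3), and no library of one class overlapped the other. At 20000 counts per cell it was found in 66.4% ± 15.2 of keratin-high, 24.1% ± 17.5 of keratin-middle and 9.46% ± 5.34 of keratin-low cells (SD, n = 3). In keratin-high cells Csta1 was lowest in replicate 2, where Tmprss2, St14, Plat and Capn2 were highest. In those cells of replicate 2, genes whose longest transcript is under 1000 bases had a median log2 ratio of -2.14 to the mean of replicates 1 and 3 (343 genes at a mean of 10 CPM or more), and longer ones 0.47 (7452 genes). The longest transcripts of the 10 members run from 1852 to 5503 bases, and the part of transcript length in their library differences was not tested.

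Capn2, at chr1:182467260-182517608 on the minus strand, had 59.2, 208 and 44.4 CPM in keratin-high cells, 5.54, 51.5 and 18.7 CPM in keratin-middle cells and 0.730, 6.67 and 3.55 CPM in keratin-low cells of replicates 1, 2 and 3. All 3 keratin-high libraries were above all keratin-low libraries, by 81.0-, 31.2- and 12.4985-fold within libraries (log2 ratio 4.98 ± 1.35, SD, n = 3). In keratin-low cells of replicate 2, 61 of 66 counts came from 1 cell, without which the level was 0.520 CPM. A count was found in 55 of 74 keratin-high and 13 of 74 keratin-low cells, and at 20000 counts per cell in 52.2% ± 7.25 and 7.67% ± 7.51 (SD, n = 3). An exon of another gene model on the opposite strand, Gm37885, overlaps Capn2 and was not analysed here.

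In 4 genes, Tmprss2, Csta1, Capn2 and Prss8, every keratin-high library was above every keratin-low library, which held for 6.61% of the 12154 genes tested. The median log2 fold change of the 10 members was 1.51, against -0.01 over all genes tested. Of the per-cell CPM summed over a library, the keratin-high cells held 80.3% ± 11.1 for Tmprss2, 83.4% ± 7.51 for Capn2 and 72.3% ± 8.88 for Csta1 (SD, n = 3). The same share was 67.9% ± 14.3 for Plat, 46.2% ± 5.84 for St14, 46.0% ± 6.36 for Prss8, 29.8% ± 5.97 for Spint1 and 31.5% ± 5.74 for Spint2. For comparison, Krt18 reached 84.8% ± 5.74 and the trophectoderm regulator Cdx2 75.9% ± 9.20. A share of 70% or more, as in 3 members, was reached by 1.46% of the genes tested. The members were chosen with the related division of the cells known, so nothing is read from these counts.

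**Figure D3:**
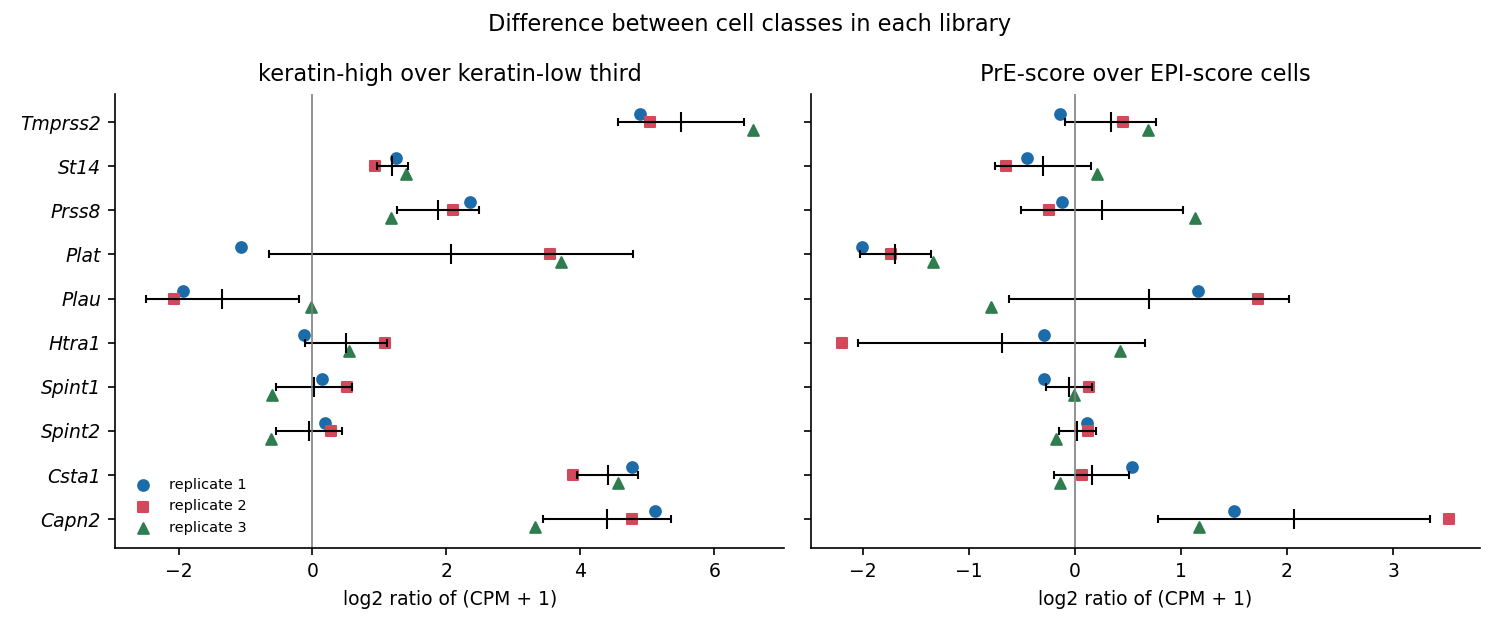
Log2 ratio of (CPM + 1) between cell classes for each gene and library, keratin-high over keratin-low on the left and primitive endoderm score over epiblast score on the right, with the mean (black tick) and SD (bar) over 3 libraries. On the left Tmprss2, Csta1 and Capn2 lie far right of 0 in every library, and on the right Plat lies left of 0 and Capn2 right of 0 in every library.

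Barcode numbers moved with the keratin ranking. In replicate 1, 17 of 27 keratin-high cells had barcodes 1 to 32 and 22 of 27 keratin-low cells had barcodes 33 to 64, and in replicate 3 no keratin-high cell had a barcode from 65 to 96. No source used here tells what the numbers stand for. Among the 9 sets of 32 barcodes, a division made after seeing the data, 6 held at least 3 cells of both classes. In all 6 the keratin-high cells had more Csta1, Capn2, Prss8, Plat and Htra1 than the keratin-low cells, in 5 more Tmprss2, St14 and Spint2, and in 3 more Spint1 and Plau. In replicate 1 only barcodes 65 to 96 counted, with 9 keratin-high and 3 keratin-low cells. The sets left out there held 2 and 22 keratin-low cells. Between the whole classes of replicate 1 the Plat and Htra1 ratios were 0.421 and 0.902, the other way. The exception for Tmprss2 was barcodes 65 to 96 of replicate 2, with 5.76 CPM in 5 keratin-high and 38.3 CPM in 6 keratin-low cells. That set holds the single Tmprss2-rich keratin-low cell described above.

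Whether the genes also differ between cells ranked by inner fate markers was asked in a contrast that did not choose them. Cells in the lower of 2 equal parts of each library by keratin level were ranked by primitive endoderm markers minus epiblast markers. They were again divided into 2 equal parts of 55 cells each over the libraries, called PrE-score and EPI-score cells. These are ranges of a score and not cell types. Epiblast markers ran from 626 to 865 CPM in PrE-score and from 1202 to 1672 CPM in EPI-score cells over the libraries. Primitive endoderm markers ran from 1006 to 1919 and from 747 to 1462 CPM, so they overlapped. Trophectoderm markers ran from 871 to 1411 and from 794 to 893 CPM, and their part in the differences below was not tested. Of the 9 members with enough counts, 0 passed (edgeR, quasi-likelihood, library block, Benjamini-Hochberg adjusted p below 0.05), with 2 at an unadjusted p below 0.05. Over all 11465 genes tested, percent called was 0%, with 387 genes at an unadjusted p below 0.05, while DESeq2 called 92 genes and again 0 members. Plat, the plasminogen activator, had 1.997, 5.98 and 1.62 CPM in PrE-score against 11.04, 22.3 and 5.65 CPM in EPI-score cells of replicates 1, 2 and 3. It was lower within each library (log2 fold change -2.04, SE 0.73, Benjamini-Hochberg adjusted p = 0.998 in edgeR), but 1 EPI-score cell held 98.1%, 70.4% and 49.4% of the Plat counts of its class in the 3 libraries, and only 8 of 55 PrE-score and 12 of 55 EPI-score cells had a count. Capn2 had 2.995, 16.9 and 4.97 CPM against 0.417, 0.551 and 1.66 CPM, with no overlap between the classes (log2 fold change 3.02, SE 1.19, adjusted p = 0.998 in the same edgeR test). Single cells carried these values too, with 66.7%, 52.6% and 58.1% of the PrE-score counts of Capn2 in 1 cell of each library, and the share of cells with a count was 11 of 55 and 10 of 55. Neither difference passed, and over the alternatives the lowest adjusted p, from DESeq2, was 0.299 for Plat and 0.287 for Capn2. With cells divided by score into 3 equal parts instead, the Plat difference shrank to -0.38.

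For the other members the difference between the class means was smaller than the larger SD between libraries. Spint2 had 103 ± 18.3 CPM in PrE-score and 103 ± 30.0 CPM in EPI-score cells, and Spint1 26.6 ± 9.14 and 27.0 ± 5.83 CPM (SD, n = 3). St14 had 50.5 ± 35.3 and 68.6 ± 63.1 CPM, and Prss8 24.0 ± 19.4 and 16.8 ± 5.10 CPM. Csta1 stood at 5.26 ± 1.29 and 4.84 ± 2.36 CPM, and Htra1 at 4.92 ± 4.21 and 6.35 ± 3.34 CPM, with ratios between the classes from 0.0342 to 1.41. Plau had 2.85, 11.4 and 0 CPM in PrE-score and 0.729, 2.75 and 0.731 CPM in EPI-score cells. Tmprss2 had too few counts for the fit, with 0.571, 25.8 and 1.04 CPM in PrE-score and 0.729, 18.6 and 0.266 CPM in EPI-score cells. The Plau and Tmprss2 levels differed by up to 4.13- and 3.91-fold within a library, without a shared direction. Class borders came from the tested cells themselves, an uncertainty that no p-value here covers.

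Over single cells, Tmprss2, Csta1 and Capn2 varied together, but most of these correlations were lower once cells were brought to equal depth. All 3 were already known to be higher in trophectoderm-like cells when the set was chosen. A positive correlation over all cells follows from that, and nothing further is read from it. At full depth the Spearman correlation between Tmprss2 and Csta1 was 0.57, 0.56 and 0.59 in replicates 1, 2 and 3 (83, 64 and 78 cells), that between Tmprss2 and Capn2 0.55, 0.57 and 0.36, and that between Csta1 and Capn2 0.64, 0.41 and 0.47. With cells thinned to 20000 counts (79, 62 and 76 cells) the same values were 0.21, 0.44 and 0.61, then 0.23, 0.66 and 0.21, and then 0.62, 0.33 and 0.35. At full depth the correlation with the keratin sum was 0.61 for Tmprss2, 0.60 for Csta1, 0.53 for Capn2, 0.36 for Plat and St14 and 0.33 for Prss8, as means of the 3 libraries. Cells of a library share its depth and preparation, and these values are descriptions without a test. Inside the keratin-high cells alone the link between Tmprss2 and Csta1 remained in replicates 1 and 2 at 0.61 and 0.49 but was 0.04 in replicate 3. That between Tmprss2 and Capn2 was 0.35, 0.50 and -0.03, and that between Csta1 and Capn2 0.64, 0.23 and 0.05. In these cells the correlation with the keratin sum was 0.42, 0.50 and -0.22 for Tmprss2 and 0.59, 0.36 and -0.33 for Csta1. For Capn2 it was 0.59, 0.28 and -0.11. The part of the keratin level in these links was not tested. Tmprss2 and Spint2 ran weakly opposite there, at -0.27, -0.41 and -0.16 at full depth. Over all cells this pair had -0.05, -0.08 and -0.02 at full depth and -0.01, -0.14 and 0.01 with cells thinned to 20000 counts. Prss8 and its inhibitor gene Spint1 had a correlation of 0.27, 0.32 and 0.38 over all cells at full depth, the highest value of Spint1 with any other member. After thinning it was 0.01, 0.12 and 0.21, below that of Spint1 and Spint2 at 0.28, 0.21 and 0.09.

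**Figure D4:**
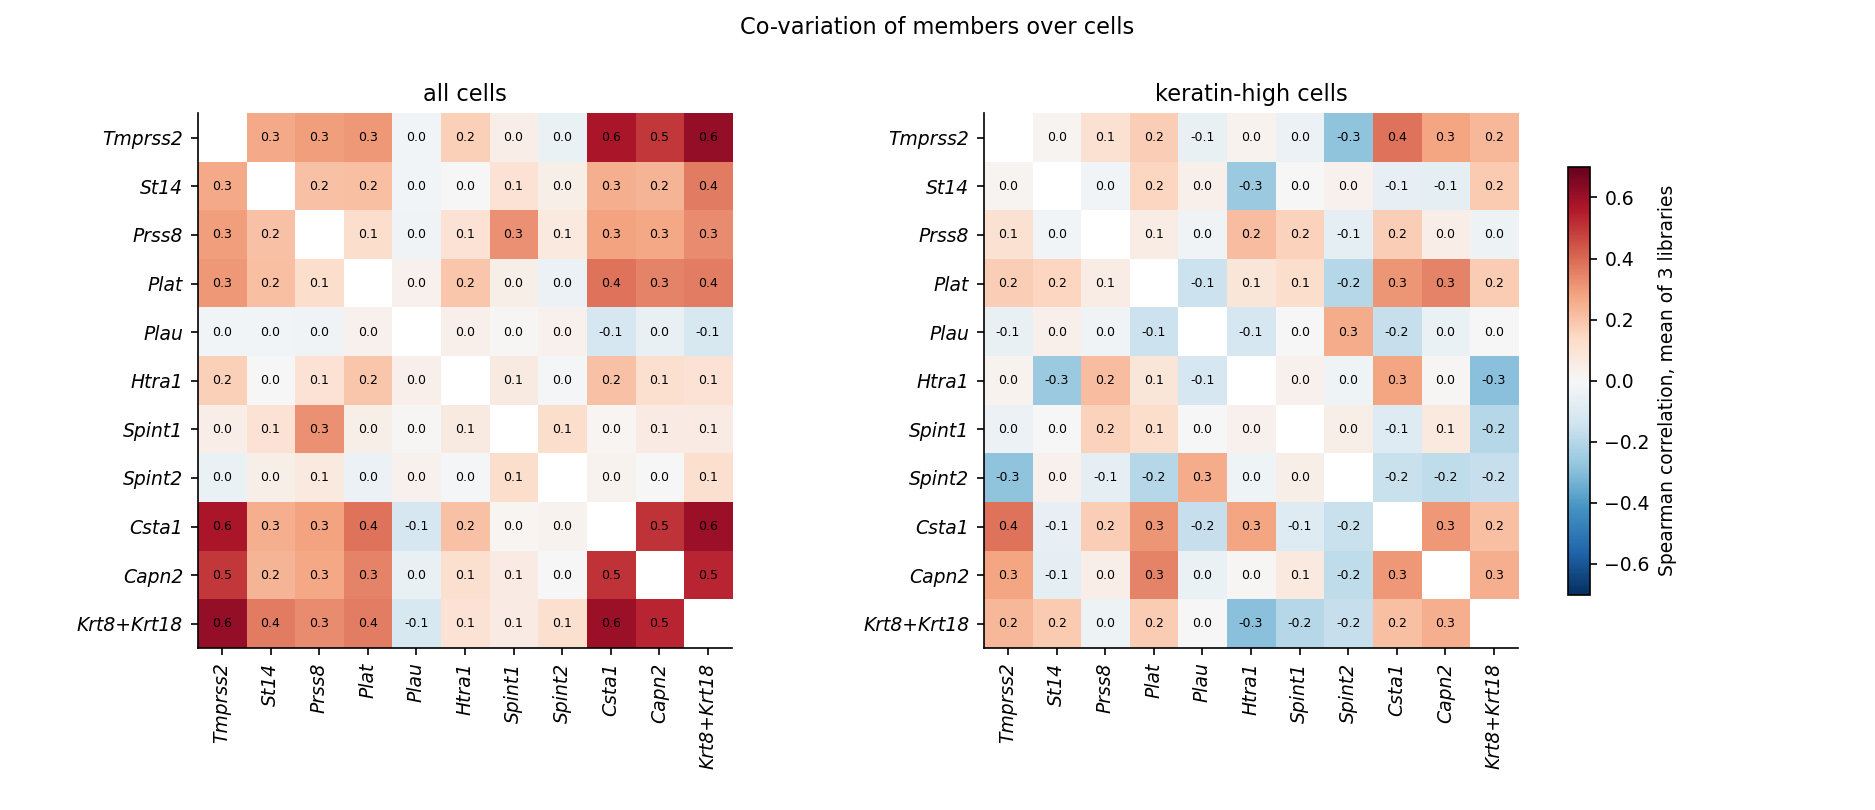
Spearman correlation between the 10 genes and the summed keratins over all cells (left) and over keratin-high cells (right), at full depth, as the mean of 3 libraries, with the value to 1 decimal in each square. Tmprss2, Csta1, Capn2 and the keratins form the dark red squares on the left, at 0.50 to 0.61, and most squares are paler on the right.

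Genes were also found together in the same cells at equal depth. With 20000 counts per cell, Tmprss2 and Csta1 were both found in 29 of 71 keratin-high, 9 of 75 keratin-middle and 0 of 71 keratin-low cells. The 0 allows up to 4.23% of cells with counts of both at that depth. This limit pools the cells of all libraries and covers counting error only, not the spread between libraries. At full depth both had a count in 56 of 74, 24 of 77 and 14 of 74 cells of these classes. Tmprss2, Csta1 and Capn2 were found together in 17, 3 and 0 cells at 20000 counts and in 48, 11 and 3 cells at full depth. At 20000 counts, Tmprss2 and Plat were found together in 18 of 71 keratin-high cells, none of them in replicate 1. At full depth both had a count in 34 of 74 keratin-high cells, some of them in replicate 1. St14 and Prss8 were both found in 27 of 71 keratin-high and 6 of 71 keratin-low cells at 20000 counts. St14, Prss8 and Spint2 were found together in 22 and 4. At full depth the pair had counts in 56 and 31 of 74 cells, and the pair with Spint2 in 55 and 31. At 20000 counts Prss8 by itself was found in 37 of 71 keratin-high and 13 of 71 keratin-low cells, and Plat in 25 and 5. The joint counts depend on these and on the single shares given above. Whether genes met in more cells than their single shares give was not tested, so no co-expression is read from the joint counts.

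Among 8523 other genes found in at least 25% of cells of every library, those most like Tmprss2 by Spearman correlation over all cells at full depth were Dppa1, Tspan8, Slc15a2, Acsl6 and AU021092, with a mean over 3 libraries of 0.64 to 0.62. Most like Csta1 were Fabp3, Krt18, Id2, Nlrp4e and Tspan8 (0.63 to 0.61), and among those most like Capn2 were Cdx2, Pgm1, Rab17 and Krt8 (0.58 to 0.54). St14 followed Ap2a2, Epcam, Slc9a3r1, Atp1b1 and Clic4 less closely (0.42 to 0.38), and Prss8 followed Ugp2, Atp1b1, Pdzk1ip1 and Tpi1 (0.44 to 0.43). Epcam encodes a surface glycoprotein that matriptase is known to cut, and Atp1b1 encodes a sodium pump subunit. Spint1 was nearest to Mier1, Derl1, Rnf149, Prss8 and Lsr (0.39 to 0.32) and Spint2 to Cdc34, Snx3, Epcam, Vmn2r91 and Rps2 (0.30 to 0.28), all weak values. Plat, Plau and Htra1 were found in too few cells of at least 1 library for this ranking.

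Other genes of these pathways, in 9 lists with 198 genes, were tested between keratin-high and keratin-low cells in the same edgeR fit over all genes. Of 101 with enough counts 0 rose, 0 fell and 101 did not pass in edgeR, beside 0.156% of all 12154 genes tested that were called (0.14%, or 17 genes, higher and 0.0165%, or 2 genes, lower, where DESeq2 called 356 higher and 519 lower). An unadjusted edgeR p below 0.05 was reached by 22 of the 101, beside 1246 of the 12154 genes (10.3%), and DESeq2 called 20 listed genes of 875 in all. The lists were chosen with earlier results of these data known, so nothing is read from these shares or from the list medians below. Leaving out replicates 1, 2 or 3 gave 10, 4 and 0 listed genes called in edgeR, against 0 with all libraries, where the calls over all genes were 406, 141 and 17.

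In the list of channel, receptor and adhesion targets, 11 genes were tested. Epcam had 1127 ± 379 CPM in keratin-high and 169 ± 65.2 CPM in keratin-low cells (SD, n = 3; edgeR adjusted p = 0.110), and the claudin gene Cldn7 1030 ± 354 and 278 ± 200 CPM (adjusted p = 0.238). Neither passed, although every keratin-high library was above every keratin-low library in both. Among 13 genes of the plasminogen system, Anxa2, a surface receptor for plasminogen and its activators, had 684 ± 331 and 60.9 ± 28.2 CPM (edgeR adjusted p = 0.0679) and did not pass. Eno1, a glycolytic enzyme that can bind plasminogen, had 242 ± 57.4 and 150.1 ± 21.7 CPM (adjusted p = 0.755), while 7 of the 13 genes had a log2 fold change below 0. Of 11 serine protease inhibitors, Serpinb6a had 332 ± 122 and 163 ± 87.7 CPM and Serpinb9b 123 ± 113 and 15.0 ± 13.0 CPM (edgeR adjusted p = 0.582 and 0.111).

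In the list drawn up as membrane-bound serine proteases, 6 further genes were tested, and whether each protein is held in a membrane was not checked. Prss36 had 16.8, 10.8 and 30.6 CPM in keratin-high and 110.4, 10.5 and 29.1 CPM in keratin-low cells of replicates 1, 2 and 3, and Tmprss9 3.96, 1.798 and 2.97 CPM and 61.3, 0.808 and 0.426 CPM. Both were higher in keratin-low cells of replicate 1 alone, and in the other 2 libraries the keratin-high value was the higher one. Among 7 proprotein convertase genes, Pcsk6 had 71.7 ± 43.4 and 91.7 ± 54.9 CPM (SD, n = 3), and Mbtps1 43.3 ± 30.9 and 109 ± 62.2 CPM. Of 23 metalloprotease genes, Adam17, a sheddase, had 77.5 ± 60.5 and 75.6 ± 37.3 CPM, and Enpep 346 ± 416 and 353 ± 561 CPM. Of 17 cathepsins and cystatins, the lysosomal proteases Ctsd and Ctsl had 980 ± 527 and 781 ± 658 CPM and 599 ± 158 and 493 ± 176 CPM. The small calpain subunit gene Capns1, partner of Capn2, had 48.8 ± 23.6 and 39.9 ± 29.5 CPM among 11 genes of that list. Capn7 had 15.3, 35.5 and 16.7 CPM in keratin-high and 397, 13.0 and 13.6 CPM in keratin-low cells, again higher in keratin-low cells of replicate 1 alone. Htra2 had 4.23 ± 1.03 and 1.55 ± 1.24 CPM, and Htra3 1.04 ± 1.01 and 1.48 ± 1.28 CPM. The median log2 fold change was 1.87 for the target list, 1.03 for serine protease inhibitors, 0.74 for the HtrA family, 0.57 for membrane-bound serine proteases, 0.17 for calpains, -0.44 for cathepsins and cystatins, -0.49 for proprotein convertases, -0.61 for the plasminogen system and -0.80 for metalloproteases, against -0.15 over all 101 genes.

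**Figure D5:**
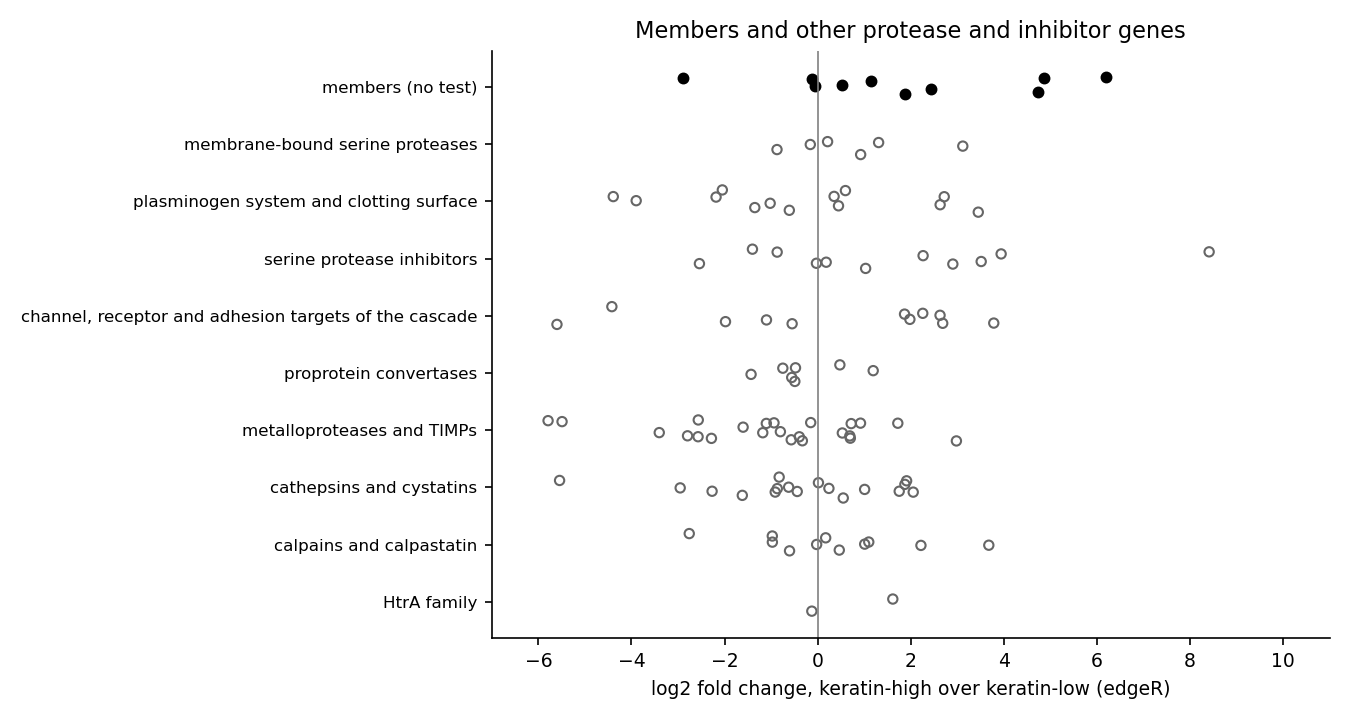
Log2 fold change of keratin-high over keratin-low cells (edgeR, horizontal) for the 10 members (filled black, no test) and for 101 further genes in 9 lists (open), none of which passed the edgeR test. The rightmost members are Tmprss2, Capn2 and Csta1, at 6.20, 4.86 and 4.74.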

How the data were processed

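The authors deposited raw counts, whole numbers per gene and cell barcode and not normalized, from 3' end libraries with cell barcodes and molecular identifiers, per the labels' protocols. CASAVA 1.8, HISAT2, HTSeq and mm10 are named in the submitters' processing notes; annotation, strand setting, use of the identifiers and mapping parameters: not given in these sources, so counts may be reads or molecules. The members and lists were chosen with earlier results of these data known.

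Cells needed 2000 genes with a count, and, as single cells were picked by mouth pipette, doublets were not called. Raw counts of a class were summed per library (n = 3), kept by filterByExpr, scaled by TMM and tested with edgeR 4.0.16 (R 4.3.3) by its quasi-likelihood test, blocked by library, since both classes of a pair come from the same libraries. DESeq2 1.42.0 was an alternative, with others on filters, thinning, ranking and libraries. P-values were adjusted over all genes (Benjamini-Hochberg, 0.05). Krt8 and Krt18, or the score markers, were left out of gene counts. The fits were tested on simulated data. All members are named, with up to 4 called and 2 abundant uncalled genes per list, and the 5 most like genes per eligible member, except 1 gene that is not reported here and is left out of the lists. Gene positions come from GENCODE M21.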

Additional observations from a re-analysis of the deposited data

Results flagged for a closer look

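The 63 barcodes left out as cells, which enter no comparison, held counts of 6 members above the limit of 3 that a count of 0 allows. Tmprss2 had 53 counts there, of which 50 lay in 1 barcode, St14 had 37 with 29 in 1 barcode, Csta1 28 with at most 6 in a barcode, Spint2 27 over 11 barcodes, Prss8 17 in 1 barcode and Htra1 10 with 9 in 1 barcode. Plau had 0 counts, Plat 1, Capn2 2 and Spint1 3. The same barcodes held 407 counts of Krt8 and 732 of Krt18.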

How the results depend on the processing

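The number of genes called between keratin-high and keratin-low cells, 19, depended on the processing: it was 875 with DESeq2, 165 without a filter on low counts, 225 without cells of very high total, 54 with thinned cells, 90 with 2 equal parts, 51 with ranking by the other trophectoderm markers, and 0 without the library block, with cells of 4000 or more genes and with 4 equal parts of the ranking (1261, 1237 and 1281 genes at an unadjusted p below 0.05 in edgeR). Leaving out a library gave 17 to 406. The number of listed genes called, 0, became 20, 9, 8, 3, 5 and 3 in the same order and 0 in the last 3, and 0 to 10 without a library. The cause was not tested. All 10 members except Spint1 and Spint2 kept the sign of their keratin difference in every alternative that gave a value, and Tmprss2, Csta1 and Capn2 stayed at log2 fold changes from 5.49 to 7.78, 3.93 to 4.91 and 3.67 to 5.61. Between PrE-score and EPI-score cells DESeq2 called 92 genes and the other alternatives 0, and no member was called in any. Differences near 0 changed sign there: St14 to 1.19 (thinned) and 0.12 (without high totals), Spint1 to 0.84 and 0.21 (the same), Csta1 to -0.33, -0.0354 and -0.48 (4000 genes, without high totals, 3 score parts), and Spint2 to -0.0218, -0.0016, -0.0093, -0.52, -0.19 and -0.32 (no filter, no replicate block, 4000 genes, thinned, without high totals, 3 score parts). Leaving out a replicate gave -0.20 to 0.48 for Prss8, -0.41 to 1.99 for Plau, -0.245 to 0.0777 for Spint1, -0.12 to 0.12 for Spint2 and -0.0257 to 0.377 for Csta1. Without the block no member was called either.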

Other observations

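One listed gene outside the naming rule was chosen after its values were seen. Serpinb6b, an intracellular serpin gene, had 9.63, 10.8 and 18.6 CPM in keratin-high cells of replicates 1, 2 and 3 and 0.0811, 0 and 0 CPM in keratin-low cells, and did not pass (edgeR, Benjamini-Hochberg adjusted p = 0.0712).

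Ranking cells by the other trophectoderm markers instead of the keratins placed 22 of 27, 17 of 21 and 22 of 26 cells of replicates 1, 2 and 3 in the upper class both times, and 15 of 27, 18 of 21 and 21 of 26 in the lower class. The keratin-low cell of replicate 2 with most Tmprss2 counts had 104.8 CPM of Tmprss2, 419 CPM of the keratins and 1017 CPM of all trophectoderm markers. In replicate 2, 1 and the same keratin-low cell had the most counts of Plau and of St14, with a total of 921498 counts and a keratin level of 81.4 CPM. Its St14 level was 209 CPM, while another keratin-low cell of replicate 2 had 786 CPM. In replicate 3, 1 keratin-low cell with a total of 1982390 counts had the most counts of both Prss8 and Spint1.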
